A study of Mus musculus with 10 samples.

Results

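The genes described here were 10 genes of the vascular endothelium and of angiogenesis, namely *Flt1*, *Kdr*, *Tek*, *Tie1*, *Cdh5*, *Pecam1*, *Icam2*, *Esm1*, *Aplnr* and *Sox17*. They were taken by name from the rows of the raw count table, with no threshold on their values, and make up 10 of its 35542 genes. These genes and the other lists were, however, chosen with earlier results of these data known. Shares over all genes are therefore given below for scale and are no test of the lists. RNA was sequenced from the frontonasal prominence (FNP), the swelling above the mouth of the embryo that forms the forehead and nose, dissected at E10.5 on the FVB/NJ inbred background. The WT group held 6 libraries with 2 normal copies of *Smchd1*, which encodes a chromatin protein needed for gene silencing, labelled as 3 males and 3 females. The MD1 group held 4 libraries homozygous for MommeD1, a chemically induced nonsense allele of *Smchd1*, labelled as 2 males and 2 females. The labels name no transgene or treatment in either group. Every cell of an MD1 embryo carries the allele, and the study describes it as lethal to female embryos, which limits what the MD1 females stand for. How embryos were shared between libraries is not stated, and p-values therefore cover only the spread between the samples, which may be technical.

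Endothelial cells line every vessel, and new vessels sprout from them along gradients of VEGF. KDR is the main signalling receptor for VEGF-A, while FLT1 binds the same ligand tightly and in its soluble form acts as a trap. TEK and TIE1 form the angiopoietin receptor system that steadies vessels, and CDH5, PECAM1 and ICAM2 sit at the contacts between endothelial cells. ESM1 is a secreted proteoglycan known as a marker of the tip cells that lead a sprout, APLNR is the receptor for apelin, and SOX17 is a transcription factor of arteries and, outside vessels, of endoderm. All 10 genes had reads in all 10 libraries, so markers that define endothelium were present in every sample. In such bulk tissue, fewer cells of a type and less RNA per cell cannot be told apart.

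Library totals ran from 4195119 counts in MD1 male replicate 3 to 24125084 in WT male replicate 3. *Smchd1* itself lay between 55.3 and 99.8 CPM (counts per 1000000 of the scaled library) in the MD1 libraries and between 229 and 265 CPM in the WT libraries, with no overlap. The library labelled female MD1 replicate 1 went against its label, since the Y-linked gene *Ddx3y* stood at 88.1 CPM there against 78.1 to 91.3 CPM in the WT males and 0 reads in each WT female. Its *Xist* level was 203 CPM, between the WT males (0.595 to 2.07 CPM) and the WT females (2592 to 2692 CPM). MD1 female replicate 4 stood apart from all others on the first principal component, which held 38.2% of the variance, at 89.0 against -35.7 to 8.53. MD1 male replicate 3, the shallowest library, stood apart on the second component, at 69.5 against -22.5 to 21.2. Each genotype difference below was therefore also computed without MD1 female replicate 4 and without both libraries labelled MD1 female.

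RefSeq promoter entries (GRCm38.p6) were held for 5 of the 10 genes. The stretches just upstream of 4 of them are shown because *Flt1*, *Esm1* and *Kdr* varied most between the MD1 libraries among these 5 genes while *Tek* varied little. The capitals mark every GGAA or its reverse complement TTCC, the core letters bound by ETS factors, a family that drives many endothelial genes. The *Flt1* stretch is chr5:147726012-147726261 on the minus strand, that of *Esm1* is chr13:113209409-113209658 on the plus strand, that of *Kdr* is chr5:75978459-75978705 on the minus strand and that of *Tek* is chr4:94739039-94739288 on the plus strand.
Flt1: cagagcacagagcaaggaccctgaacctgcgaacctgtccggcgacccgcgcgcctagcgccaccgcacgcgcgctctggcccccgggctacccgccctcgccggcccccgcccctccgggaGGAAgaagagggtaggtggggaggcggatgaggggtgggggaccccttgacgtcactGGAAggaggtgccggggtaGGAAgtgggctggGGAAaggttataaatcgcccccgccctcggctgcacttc
Esm1: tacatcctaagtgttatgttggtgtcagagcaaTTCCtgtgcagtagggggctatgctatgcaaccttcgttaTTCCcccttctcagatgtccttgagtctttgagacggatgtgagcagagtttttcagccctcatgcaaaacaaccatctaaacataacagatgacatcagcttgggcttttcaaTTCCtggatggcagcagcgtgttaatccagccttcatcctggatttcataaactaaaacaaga
Kdr: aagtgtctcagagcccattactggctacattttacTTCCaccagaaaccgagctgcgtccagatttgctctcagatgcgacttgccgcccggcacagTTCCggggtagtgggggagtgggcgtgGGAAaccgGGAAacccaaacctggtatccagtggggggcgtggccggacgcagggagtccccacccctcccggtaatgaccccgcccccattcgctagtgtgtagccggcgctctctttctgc
Tek: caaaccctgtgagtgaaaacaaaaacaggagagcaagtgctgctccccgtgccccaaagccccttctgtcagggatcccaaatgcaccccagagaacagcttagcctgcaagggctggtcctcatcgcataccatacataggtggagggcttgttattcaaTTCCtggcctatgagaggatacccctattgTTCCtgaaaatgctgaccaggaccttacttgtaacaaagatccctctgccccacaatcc

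The core was found 4 times upstream of *Flt1*, 4 times upstream of *Kdr*, 3 times upstream of *Esm1* and 2 times upstream of *Tek*, counting both strands. *Tie1*, the other gene with an entry, had the most matches, at 7, and a log2 fold change between genotypes of 0.00. In its window 212 of the 250 bases lay inside the annotated gene. Of all 32841 RefSeq promoters searched over the same 250 bases, 93.5% held it, with a median of 3 matches, so its presence is common to most genes. The longer string CAGGAA, which contains GGAA, was found 2 times each for *Esm1* and *Tek*, 1 time for *Tie1* and not for *Flt1* or *Kdr*. Of all promoters 25.7% held it. The string AACAAT, a SOX-type motif, was found 1 time upstream of *Tek* and in 9.4% of promoters. Neither ACGTG, one form of the core of the hypoxia response element, nor GATAA, the GATA core, was in any of the 4 windows shown. They were in 16.6% and 22.6% of promoters. The other form, GCGTG, was searched after the data had been seen. It was found 2 times for *Kdr*, 1 time each for *Flt1* and *Esm1*, and not for *Tek* or *Tie1*, against 28.2% of promoters. As the 4 windows shown were also picked by how their genes varied, this split is no test of that motif. GC content was 70.4% for *Flt1*, 61.5% for *Kdr*, 51.2% for *Tek* and 44.0% for *Esm1*. These are matches of letters and say nothing of which factor was bound.

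Per length of transcript, the deposited log2 RPKM values placed the cadherin of endothelial junctions *Cdh5* highest in WT, at 4.36 ± 0.08 (SD, n = 6). *Aplnr* followed at 3.87 ± 0.20, *Kdr* at 3.49 ± 0.17, *Tie1* at 3.11 ± 0.15 and *Pecam1* at 2.93 ± 0.07 on the log2 RPKM scale. *Tek* stood at 2.20 ± 0.30, *Icam2* at 2.03 ± 0.21, *Flt1* at 1.23 ± 0.16, *Esm1* at 0.37 ± 0.15 and *Sox17* at 0.20 ± 0.37. Neighbours in this order held their places in 6 of 6 WT libraries, except *Tek* above *Icam2* (3 of 6) and *Esm1* above *Sox17* (4 of 6), which did not differ beyond their spread. The difference between *Tie1* and *Pecam1* was also smaller than their summed SDs, although its sign was the same in 6 of 6. In MD1 the order was another one, with *Pecam1* above *Tie1* in 4 of 4 libraries, *Icam2* above *Tek* in 4 of 4, *Kdr* above *Aplnr* in 2 of 4 and *Flt1* above *Icam2* in 2 of 4. The order in MD1 female replicate 4 had *Kdr* first at 4.40, followed by *Cdh5* at 4.35, *Flt1* at 3.93, *Pecam1* at 3.89 and *Esm1* at 3.31, while *Aplnr* came after these at 2.96. *Sox17* was last in each MD1 library.

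**Figure D1:**
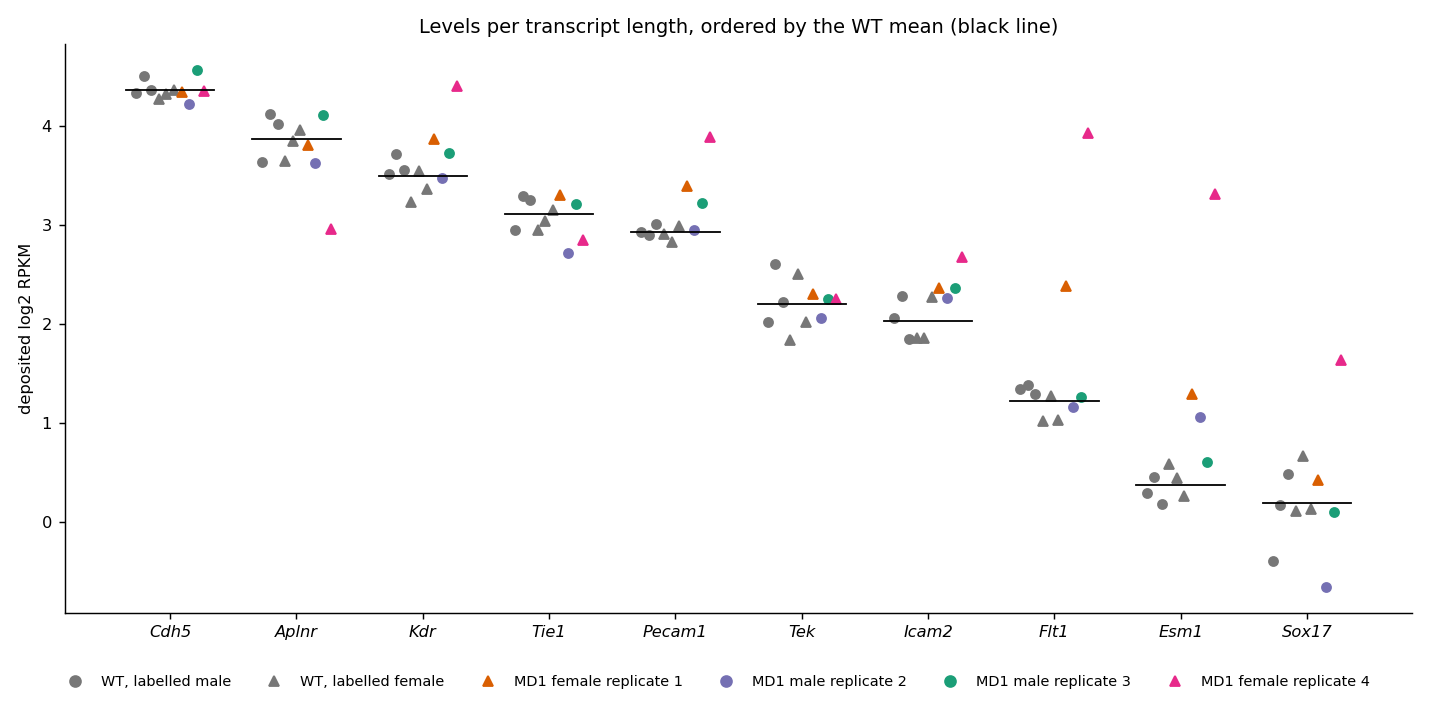
Deposited log2 RPKM of each gene (vertical axis) in each library, with genes ordered along the horizontal axis by the WT mean, which the black line marks; grey points are WT libraries, coloured points MD1 libraries, circles labelled males and triangles labelled females. MD1 female replicate 4 departs from the WT order, with *Flt1* at 3.93 and *Esm1* at 3.31 against WT means of 1.23 and 0.37.

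Between genotypes, the tip cell gene *Esm1* and the VEGF receptor *Flt1* had the largest log2 fold changes, MD1 minus WT, at 1.83 and 1.61. *Pecam1*, *Sox17*, *Kdr* and *Icam2* lay between 0.59 and 0.48, and *Cdh5*, *Tek*, *Tie1* and *Aplnr* between 0.10 and -0.15. None of the 10 passed edgeR's quasi-likelihood test with Benjamini-Hochberg adjustment over the 15452 autosomal genes tested, of which 12, or 0.0777%, passed at 0.05. Limma-voom and limma on the deposited log2 RPKM also called 0 of the 10. DESeq2 gave no p for *Esm1* and called none of the rest. Of all autosomal genes, DESeq2 called 51 and limma on log2 RPKM called 4. At an unadjusted p under 0.05, 5 of the 10 were higher in MD1 (*Flt1*, *Kdr*, *Pecam1*, *Icam2* and *Esm1*) and 0 were lower. Of all genes tested, 6.41% were higher and 3.38% lower on that criterion. The median log2 fold change of the 10 genes was 0.50, against 0.00 over all genes tested. *Esm1* alone of the 10 had all 4 MD1 libraries above all 6 WT libraries, as did 0.984% of all genes tested.

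*Flt1* (ENSMUSG00000029648, chromosome 5, 147561604 to 147726011, minus strand, GRCm38, 33 merged exon blocks in GENCODE M21), the decoy VEGF receptor, ran from 30.4 to 38.7 CPM in WT. Its level in the WT males was 38.7, 38.7 and 36.2 CPM and in the WT females 30.5, 36.5 and 30.4 CPM. In MD1 it was 77.7 CPM in the library labelled female replicate 1, 33.8 and 36.7 CPM in male replicates 2 and 3, and 276 CPM in female replicate 4. Both libraries labelled MD1 female lay above every WT library, and both MD1 males lay inside the WT range. The means were 35.2 ± 3.79 CPM (SD, n = 6) in WT and 106 ± 115 CPM (SD, n = 4) in MD1. Its log2 fold change was 1.61, standard error 0.47, at an unadjusted p of 0.00501 and an adjusted p of 0.496 by edgeR's quasi-likelihood test.

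*Kdr* (ENSMUSG00000062960; chromosome 5, 75932827 to 75978458, minus strand, 29 exon blocks), the signalling receptor for the same ligand, had 116, 130.3 and 116 CPM in the WT males and 94.3, 118 and 103 CPM in the WT females. In MD1 it had 145, 112, 135 and 256 CPM in replicates 1 to 4. The labelled female replicate 1, male replicate 3 and female replicate 4 exceeded the WT range, and male replicate 2 lay inside it. In MD1 female replicate 4 *Kdr* stood at 2.27 times the WT mean and *Flt1* at 7.85 times. Its log2 fold change between genotypes was 0.53 ± 0.19 (standard error; adjusted p = 0.496, edgeR).

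*Esm1* (ENSMUSG00000042379; chromosome 13, 113209659 to 113218098, plus strand, 3 exon blocks), the tip cell proteoglycan, was a low gene in WT, at 2.90, 3.16 and 2.60 CPM in the males and 3.49, 3.21 and 2.78 CPM in the females. In MD1 it had 5.65, 4.88, 3.62 and 27.9 CPM in replicates 1 to 4. All 4 values lay above the WT range, but that of male replicate 3 rested on 15 counts and exceeded the highest WT library, at 3.49 CPM, by little. In MD1 female replicate 4 the level was 9.24 times the WT mean, the largest ratio among the 10 genes. Its log2 fold change was 1.83, standard error 0.48, at an unadjusted p of 0.00222 and an adjusted p of 0.496 by edgeR's quasi-likelihood test. The coding gene *Gzmk* overlaps it on the other strand and had 0 counts in all 10 libraries.

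*Aplnr* (ENSMUSG00000044338; chromosome 2, 85136225 to 85139923, plus strand, 1 exon block), the apelin receptor, went the other way in MD1 female replicate 4. WT libraries had 51.6, 70.4 and 65.2 CPM in males and 51.2, 59.5 and 63.5 CPM in females, and MD1 replicates 1 to 4 had 57.2, 50.9, 72.2 and 38.6 CPM. The last was the lowest value of the 10 libraries, 0.641 times the WT mean, while MD1 male replicate 3 was the highest. The groups overlapped, and the log2 fold change was -0.15 ± 0.15 (standard error; adjusted p = 0.712, edgeR).

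**Figure D2:**
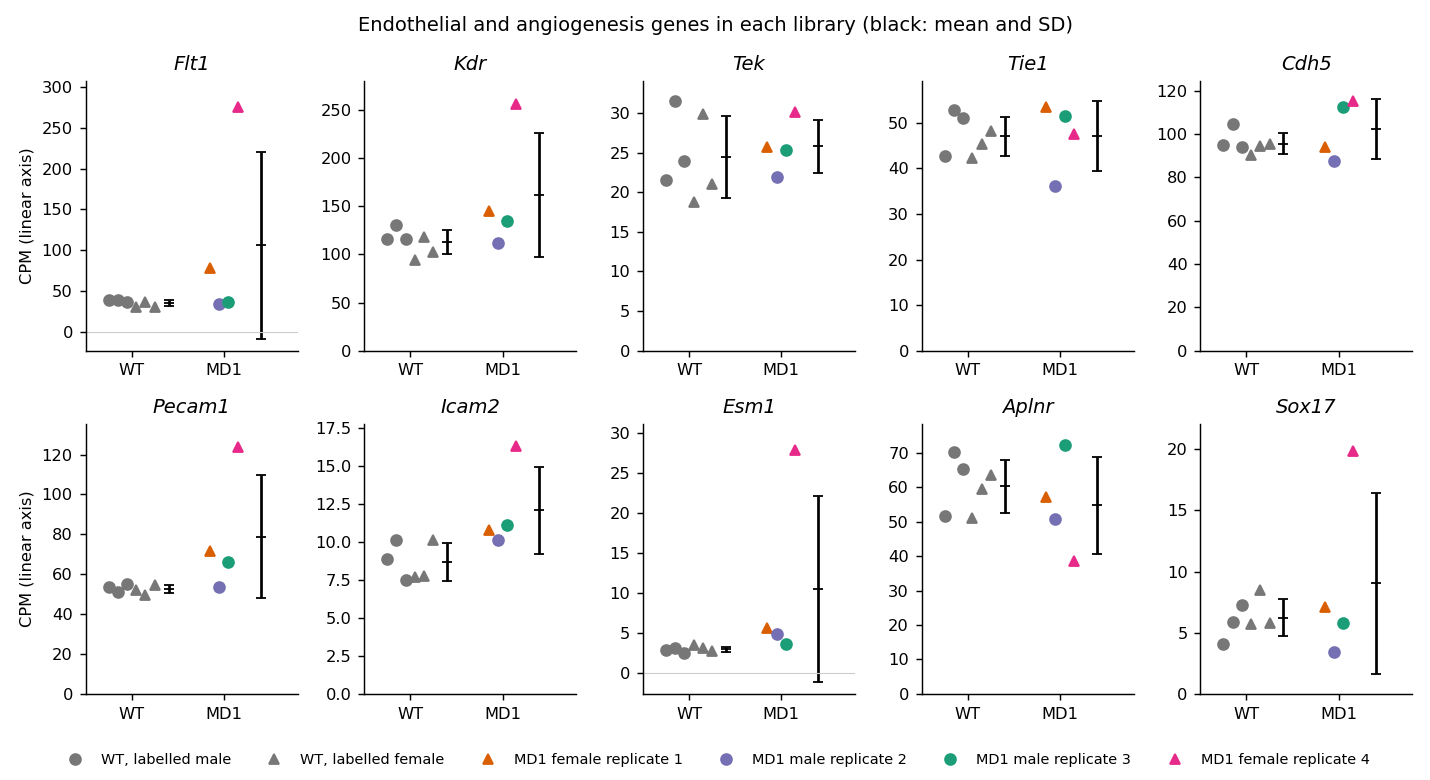
CPM of each gene on a linear axis, by genotype along the horizontal axis; grey points are WT libraries, coloured points MD1 libraries, circles labelled males, triangles labelled females, and black bars the mean with its SD (n = 6 for WT and n = 4 for MD1). In *Flt1* and *Esm1* MD1 female replicate 4 stands far above the rest, at 276 and 27.9 CPM, and in *Aplnr* it is the lowest point, at 38.6 CPM.

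*Pecam1* (ENSMUSG00000020717; chromosome 11, 106654217 to 106750628, minus strand, 17 exon blocks), an adhesion protein also present on platelets and leukocytes, was the steadiest of the 10 genes in WT, with a coefficient of variation of 3.96%. Its WT levels were 53.4, 50.9 and 54.9 CPM in males and 51.9, 49.6 and 54.5 CPM in females. In MD1 it had 71.8, 53.7, 65.9 and 124 CPM, so that 3 of the 4 libraries, a labelled male among them, exceeded the WT range. Its log2 fold change was 0.59, standard error 0.18, at an unadjusted p of 0.00657 and an adjusted p of 0.496 by edgeR's quasi-likelihood test. *Icam2* (ENSMUSG00000001029; chromosome 11, 106377656 to 106388075, minus strand, 7 exon blocks), another adhesion protein of endothelium and platelets, had 8.91, 10.2 and 7.49 CPM in WT males and 7.69, 7.75 and 10.2 CPM in WT females. MD1 replicates 1 to 4 had 10.8, 10.2, 11.1 and 16.3 CPM, 3 of them above the WT range. Its log2 fold change was 0.48 ± 0.17 (standard error; adjusted p = 0.496, edgeR).

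*Cdh5* (ENSMUSG00000031871; chromosome 8, 104101625 to 104144511, plus strand, 13 exon blocks), the cadherin found almost nowhere but in endothelium, differed little between the libraries. It had 94.8, 104.5 and 93.9 CPM in WT males, 90.2, 94.3 and 95.3 CPM in WT females, and 94.0, 87.4, 113 and 115 CPM in MD1 replicates 1 to 4. MD1 male replicate 2 lay below the WT range of 90.2 to 104.5 CPM, and MD1 male replicate 3 and female replicate 4 lay above it. The group means were 95.5 ± 4.76 CPM (SD, n = 6) and 102 ± 13.7 CPM (SD, n = 4). The log2 fold change was 0.10 ± 0.09 (standard error; adjusted p = 0.681, edgeR).

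The angiopoietin receptors overlapped between genotypes. *Tek* (ENSMUSG00000006386; chromosome 4, 94739289 to 94874976, plus strand, 23 exon blocks) ran from 18.8 to 31.5 CPM in WT and had 25.7, 21.9, 25.4 and 30.1 CPM in MD1 replicates 1 to 4, a log2 fold change of 0.08 ± 0.16 (adjusted p = 0.857, edgeR). *Tie1* (ENSMUSG00000033191; chromosome 4, 118471191 to 118490061, minus strand, 22 exon blocks) ran from 42.3 to 52.8 CPM in WT and had 53.4, 36.1, 51.4 and 47.5 CPM in MD1, a log2 fold change of 0.00 ± 0.12. In MD1 female replicate 4, in which *Flt1* and *Esm1* were highest, *Tek* and *Tie1* were 1.23 and 1.01 times the WT mean.

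*Sox17* (ENSMUSG00000025902; chromosome 1, 4490931 to 4497354, minus strand, 4 exon blocks) was the most variable of the 10 genes in WT. WT males had 4.08, 5.91 and 7.28 CPM, WT females 5.73, 8.51 and 5.77 CPM, and MD1 replicates 1 to 4 had 7.08, 3.39, 5.80 and 19.9 CPM. Only female replicate 4 lay above the WT range and male replicate 2 lay below it, on 34 counts. The log2 fold change was 0.57 ± 0.39 (adjusted p = 0.598, edgeR), and without MD1 female replicate 4 its sign turned, to -0.18 ± 0.26. A non-coding gene overlaps *Sox17* on the other strand and had 21 counts over the 10 libraries.

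The size of the genotype difference rested on the libraries labelled MD1 female. Without MD1 female replicate 4 the median of the 10 log2 fold changes was 0.12, with *Flt1* at 0.54 ± 0.20, *Esm1* at 0.69 ± 0.20, *Pecam1* at 0.29 ± 0.09 and *Kdr* at 0.21 ± 0.10 (standard errors). On those libraries 3 of the 10 were higher at an unadjusted p under 0.05, against 3.21% of all genes, and 0 passed after adjustment, against 0.0835%. Without both libraries labelled MD1 female 0 of the 10 were higher on that criterion, against 4.47% of all genes, and 0 passed after adjustment, against 0.0385%. *Flt1* then stood at 0.00 ± 0.13, *Esm1* at 0.53 ± 0.25, *Icam2* at 0.29 ± 0.19, *Pecam1* at 0.18 ± 0.09 and *Sox17* at -0.52 ± 0.31. Across all 23 ways of fitting, the lowest adjusted p of any of the 10 genes was 0.232, for *Pecam1* by DESeq2, while *Esm1* had no p there.

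**Figure D3:**
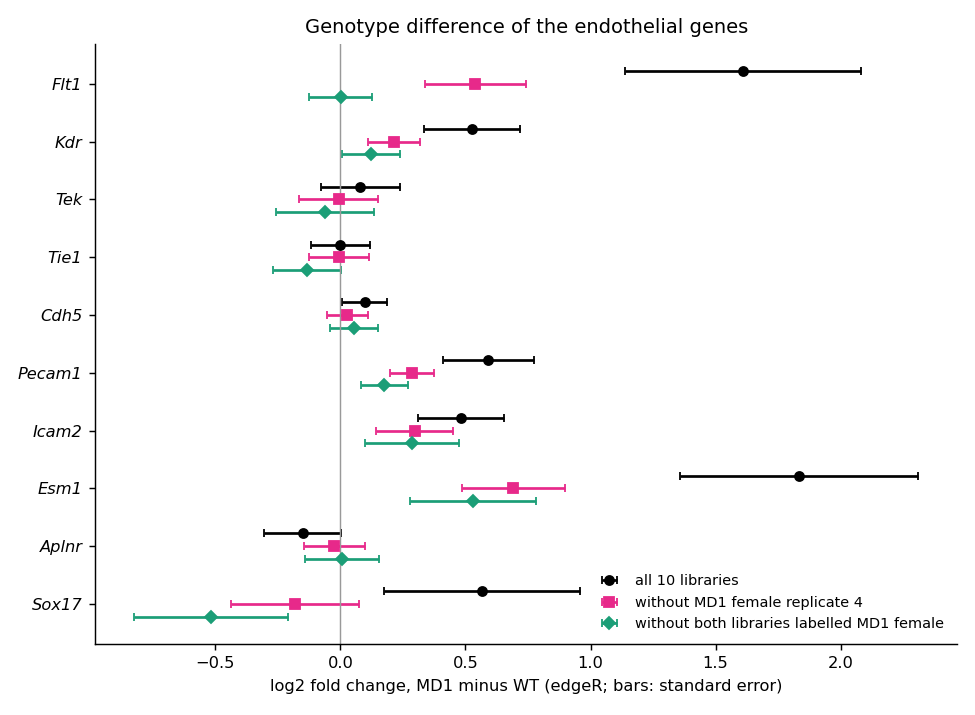
Log2 fold change, MD1 minus WT, of each gene on the horizontal axis, with bars of 1 standard error, from edgeR fits on all 10 libraries (black circles), without MD1 female replicate 4 (pink squares) and without both libraries labelled MD1 female (green diamonds). *Flt1* stands at 1.61, 0.54 and 0.00 in the 3 fits, and *Sox17* at 0.57, -0.18 and -0.52.

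Counted by library, 7 of the 10 genes lay above all WT libraries in MD1 female replicate 4 and 1, *Aplnr*, lay below them, where 35.3% and 35.7% of all genes tested did. In the library labelled female MD1 replicate 1 the count above was 6 of 10, against 13.5% of all genes. In MD1 male replicate 2 it was 1 of 10, against 19.9%, while 4 of 10 (*Tie1*, *Cdh5*, *Aplnr* and *Sox17*) lay below all WT libraries, against 21.7%. It was 6 of 10 in MD1 male replicate 3, against 23.3%. At 1.5 times the WT mean or more, MD1 female replicate 4 held 6 of the 10 genes, against 18.5% of all genes, while the library labelled female replicate 1 held 2 (3.44% of all genes), male replicate 2 held 1 (3.27%) and male replicate 3 held 0 (4.96%). Both measures use single libraries and carry no test.

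Set against *Cdh5* in the same library, a reference chosen after the values were seen, the endothelial genes did not move together. In MD1 female replicate 4 the log2 ratio to *Cdh5* exceeded its WT mean by 2.94 for *Esm1*, 2.71 for *Flt1*, 1.44 for *Sox17*, 0.97 for *Pecam1*, 0.92 for *Kdr* and 0.65 for *Icam2*. For *Tek* the same difference was 0.06, within the WT spread of 0.25 (SD, n = 6), while for *Tie1* and *Aplnr* it was -0.25 and -0.90. In the library labelled female MD1 replicate 1 the difference was 1.17 for *Flt1*, 0.93 for *Esm1* and 0.47 for *Pecam1*. In MD1 male replicate 2 it was 0.82 for *Esm1* and 0.08 for *Flt1*, and in MD1 male replicate 3 it was 0.03 and -0.17.

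The ligands of these receptors were described from a wider list of 79 endothelial genes, of which 78 were in the table and 73 were tested. None of the 73 passed the adjusted threshold by edgeR. At an unadjusted p under 0.05, 15 were higher and 1 was lower in MD1, against the 6.41% and 3.38% of all genes, and the median log2 fold change was 0.17. *Vegfa*, the ligand of both VEGF receptors, ran from 70.2 to 169.9 CPM in WT, with WT male replicate 1 highest. In MD1 *Vegfa* had 161 CPM in the library labelled female replicate 1, 71.6 and 88.6 CPM in the males and 918 CPM in female replicate 4. Its log2 fold change was 1.71 ± 0.60 (adjusted p = 0.496, edgeR), and -0.25 without both libraries labelled MD1 female.

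*Vegfc*, which signals mainly through FLT4, ran from 11.2 to 14.8 CPM in WT and had 15.1, 15.2, 15.9 and 26.3 CPM in MD1. All 4 MD1 libraries lay above all WT libraries, as for 0.984% of all genes tested. Those of replicates 1 to 3 did so by little. The log2 fold change of *Vegfc* was 0.45 ± 0.17 (adjusted p = 0.496, edgeR). Of the other tested genes of the VEGF group, the ligands *Vegfb* and *Pgf* had log2 fold changes of 0.12 and 0.14, the receptor *Flt4* had 0.04, and the co-receptors *Nrp1* and *Nrp2* had 0.23 and 0.17. *Vegfd*, a ligand outside the autosomal test because it is X-linked, had 4.25 to 8.83 CPM in WT and 6.32, 5.78, 3.38 and 1.37 CPM in MD1 replicates 1 to 4, the last 2 below the WT range. For the angiopoietin system, *Angpt1*, the activating ligand of TEK, had 0.12, *Angpt2*, its context-dependent antagonist, had -0.07, and *Ptprb*, the phosphatase that acts on TEK, had 0.29. Of the apelin ligands *Apela* had -0.14 ± 0.39, with 2.23, 2.79, 2.90 and 0.455 CPM in MD1 replicates 1 to 4 against 1.51 to 2.73 CPM in WT. *Apln*, being X-linked, was outside the autosomal test. *Apln* had 9.98 to 17.6 CPM in WT and 21.8, 13.9, 17.4 and 31.3 CPM in MD1 replicates 1 to 4, both libraries labelled female above the WT range.

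Among the other roles of that list, the highest and lowest genes were as follows. Of the transcription factors *Hhex*, a homeobox gene of endothelium and endoderm, had a log2 fold change of 1.46 ± 0.50. *Klf2*, a factor induced by flow, had -0.66 ± 0.26 (adjusted p = 0.496, edgeR). In *Klf2* 3 of 4 MD1 libraries lay below the WT range of 3.11 to 4.24 CPM, on 21, 11 and 16 counts. Of the tip cell and Notch genes *Dll4*, the Notch ligand of tip cells, had 0.65 ± 0.36 and *Nrarp*, a Notch target, had -0.36 ± 0.22. *Dll4* stood at 48.6 CPM in MD1 female replicate 4, at 16.4, 11.1 and 10.6 CPM in MD1 replicates 1 to 3 and between 11.6 and 16.2 CPM in WT. Of the surface, junction and signalling genes *Cav1*, a coat protein of caveolae, had 1.70 ± 0.48 and *Arhgef15* had -0.39 ± 0.29. *Cav1* stood at 59.4 CPM in MD1 female replicate 4 and at 6.14 to 8.49 CPM in WT. The lymphatic and sinusoidal genes ranged from -0.17 (*Prox1*) to 0.29 (*Stab1*).

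Lists of other cell types and of the hypoxia response were measured in the same libraries. The 19 tested genes of the hypoxia response, which low oxygen induces and *Vegfa* belongs with, all had higher means in MD1, 18 at an unadjusted p under 0.05 (6.41% of all genes) and 0 past the adjusted threshold by edgeR (0.0777% of all genes). Their median log2 fold change was 1.58, and 0.33 without MD1 female replicate 4. Their mean log2 CPM relative to the WT mean was 3.31 in MD1 female replicate 4, 1.14 in the library labelled female MD1 replicate 1 and -0.40 in each MD1 male. WT male replicate 1 stood at 1.19 on this score, and its *Flt1* and *Esm1* levels were 38.7 and 2.90 CPM. Summed over the 20 listed hypoxia genes, MD1 male replicates 2 and 3 had 2197 and 3020 CPM, against 1804 to 3987 CPM in WT. In MD1 male replicate 3, the shallowest library, 2 of the 20 had 0 reads. The part of the hypoxia response in the endothelial differences was not tested.

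**Figure D4:**
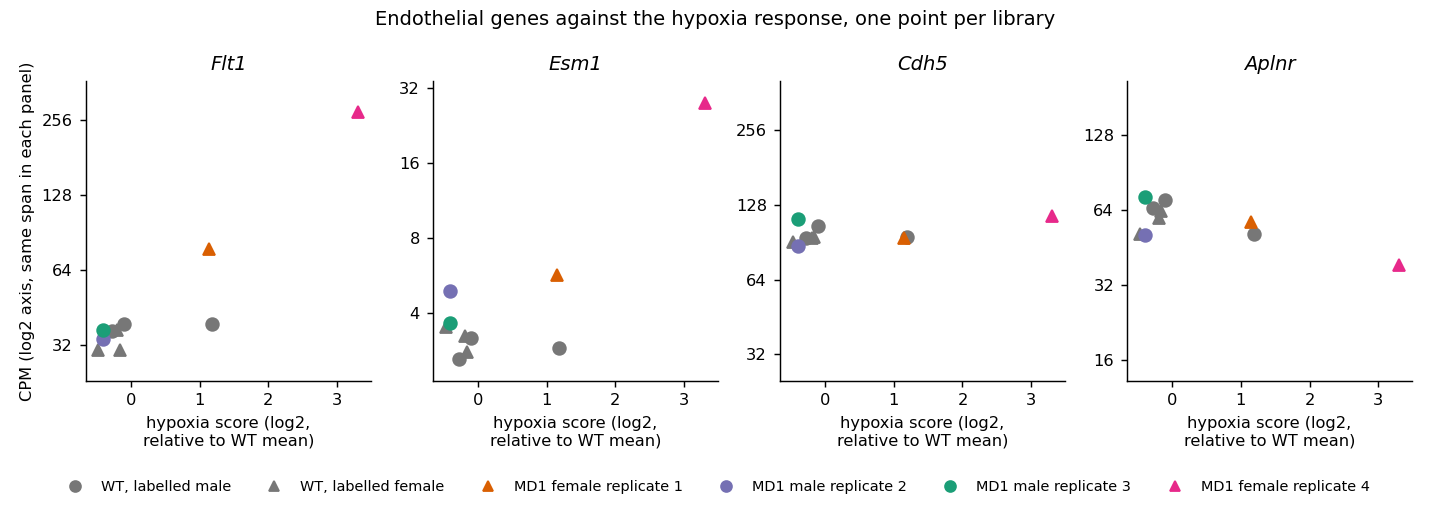
CPM of *Flt1*, *Esm1*, *Cdh5* and *Aplnr* (vertical log2 axis, same span in each panel) against the mean log2 CPM of the hypoxia genes relative to the WT mean (horizontal axis), 1 point per library, with colours and shapes by genotype, library and labelled sex. MD1 female replicate 4 stands alone on the right, at a score of 3.31 with 276 CPM of *Flt1* and 38.6 CPM of *Aplnr*, and the other 9 libraries score from -0.47 to 1.19.

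Erythroid genes, of which 9 of 12 were tested, summed to 20698 CPM in MD1 female replicate 4, against 3098 to 4492 CPM in WT and 2721 to 4393 CPM in the other MD1 libraries, and *Tspo2* was at 0 throughout. Megakaryocyte and platelet genes, which like *Pecam1* and *Icam2* belong to blood as well, summed to 75.1 CPM in MD1 female replicate 4 against 17.3 to 27.7 CPM in WT. Yolk sac and liver genes, a list that also holds *Sox17*, summed to 365 CPM in the library labelled female MD1 replicate 1 and 110.5 CPM in female replicate 4, against 8.06 to 35.6 CPM in WT and 5.08 to 6.76 CPM in the MD1 males. Mural cell genes, the partners of endothelium in the vessel wall, summed to 402 to 502 CPM in MD1 and 401 to 508 CPM in WT. Macrophage genes summed to 32.2 to 42.1 CPM in MD1 and 33.7 to 46.4 CPM in WT. Facial mesenchyme genes, the bulk of this tissue, summed to 1236 CPM in MD1 female replicate 4 and 1649 CPM in MD1 male replicate 3, below the WT range of 1699 to 2433 CPM. Facial ectoderm and placode genes summed to 474, 426, 480.3 and 514 CPM in MD1 replicates 1 to 4 against 402 to 469.7 CPM in WT. Decidua and uterine NK cell genes summed to 22.1 and 26.0 CPM in the libraries labelled MD1 female against 2.47 to 6.65 CPM in WT. Of these 8 genes 2 were tested. In MD1 female replicate 4 *Dcn* alone stood at 22.7 CPM, and 5 of the 8 had 0 reads. Trophoblast genes, near the floor, summed to 3.86 to 13.7 CPM in MD1 against 1.99 to 3.71 CPM in WT. Of these 10 genes 8 had 0 reads in MD1 male replicate 3. The 1 trophoblast gene tested had a log2 CPM relative to the WT mean of -2.43 in MD1 female replicate 4. The part of these cell types in the endothelial differences was not tested.

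**Figure D5:**
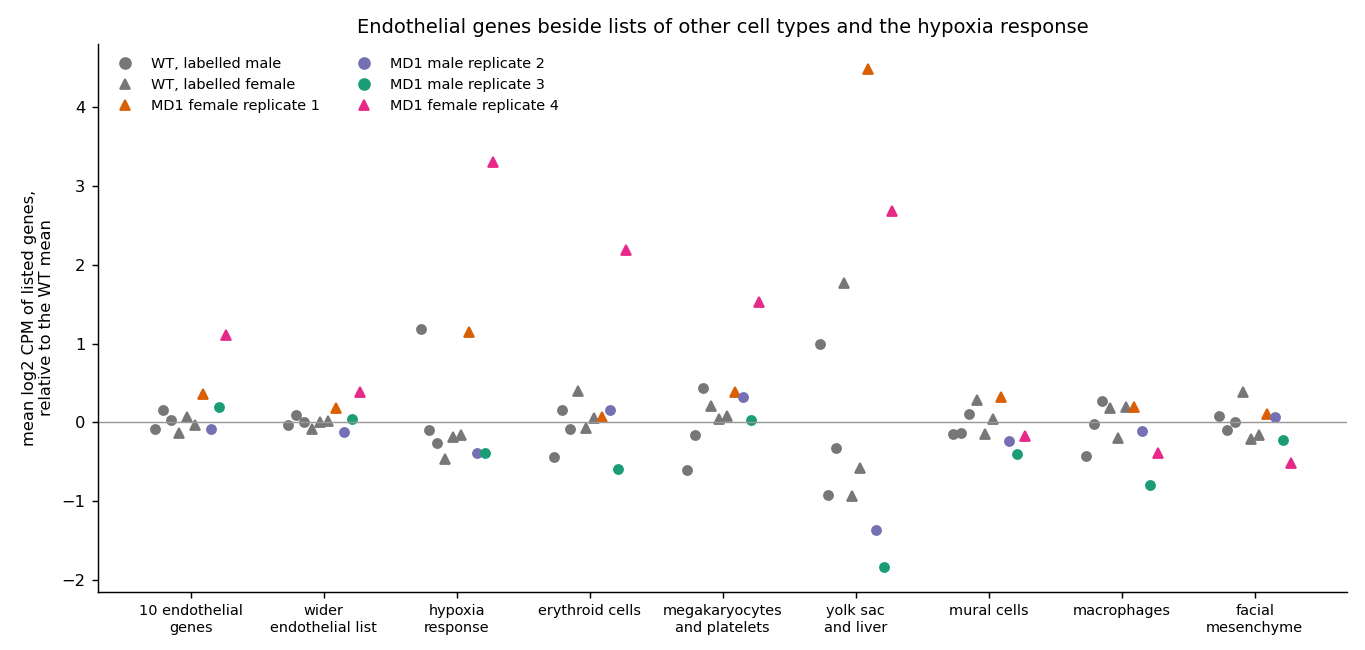
Mean log2 CPM of the genes of each list relative to the WT mean (vertical axis), for each list along the horizontal axis, 1 point per library, with grey for WT, colours for MD1 libraries, circles for labelled males and triangles for labelled females. MD1 female replicate 4 stands highest for the hypoxia genes, at 3.31, and at 1.11 for the 10 endothelial genes and 0.39 for the wider endothelial list.

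The genes whose pattern over the 10 libraries was most like the mean profile of the 10 were *Adgrf5* (Pearson r = 0.99), an adhesion receptor of endothelium, then *Sema3g*, *Csf2rb*, *Gm20412*, *Scpep1*, *Pde8a*, *Sertm1*, *Clec14a*, *Pttg1ip* and *Tinagl1*, the last at r = 0.97. Of the 50 genes most like the profile, 6 belonged to the wider endothelial list, which held 73 of the 15442 genes compared, and over the 6 WT libraries alone 0 of 50 did. The 10 points include MD1 female replicate 4, whose mean profile of 0.96 on the log2 scale was far above the next, 0.20. Without it r was 0.93 for *Adgrf5* and 0.78 for *Tinagl1*. *Adgrf5* stood at 2.77 times the WT mean in that library.

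Between labelled females and males of WT, 0 of the 10 genes passed the adjusted threshold by edgeR, as for 0% of all 15982 genes. At an unadjusted p under 0.05 there were 0 of the 10, against 1.31% of all genes. That fit called no gene on any chromosome, although *Xist* ran from 0.595 to 2.07 CPM in WT males and from 2592 to 2692 CPM in WT females. Its 0 of the 10 therefore cannot show that a sex difference is absent. The log2 differences, female minus male, ran from -0.22 for *Flt1* to 0.18 for *Sox17*. In a fit on the WT libraries alone *Flt1* had an unadjusted p of 0.0499 and an adjusted p of 0.999, where 3.02% of genes passed the unadjusted threshold and 0.0602% the adjusted threshold. Within labelled females the genotype difference was 2.45 ± 0.37 for *Flt1* (adjusted p = 0.0996, edgeR) and 2.39 ± 0.50 for *Esm1*, and within labelled males it was -0.11 ± 0.39 and 0.59 ± 0.56 (standard errors). The median over the 10 genes was 0.79 in labelled females and -0.0053 in labelled males. The labelled MD1 females were 2 libraries, namely replicate 1, which carried Y-linked reads, and replicate 4, which stood apart on the first principal component. These values therefore do not separate sex from those 2 libraries.

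The difference between these effects was 2.55 ± 0.55 for *Flt1* and 0.91 ± 0.29 for *Kdr*. It passed the adjusted threshold for 0 of the 10 genes, with a lowest adjusted p of 0.445 by edgeR, and for 0% of all 15982 genes. As no gene of any kind passed, this cannot show that the effects were alike. At an unadjusted p under 0.05 there were 5 of the 10, against 10.4% of all genes. Without a filter on low counts *Flt1* passed, at an adjusted p of 0.00285, as did 0.623% of all genes. Without the library labelled female MD1 replicate 1, which carried Y-linked reads, 5 genes passed (*Flt1*, *Kdr*, *Pecam1*, *Esm1* and *Sox17*), where 22.6% of all genes did, but the MD1 females were then 1 library. Without MD1 female replicate 4 *Flt1* alone passed, at an adjusted p of 0.0198, where 0.0435% of all genes did, and the only MD1 library then labelled female carried Y-linked reads. In both fits the lone library was assumed to vary like the other groups.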

How the data were processed

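RNA-seq counts were analysed for 6 WT and 4 MD1 libraries of E10.5 FNP, grouped by their labels. The authors trimmed single-end reads with Trim Galore 0.4.4, aligned them with HISAT2 2.0.5 to GRCm38.p6 and counted them per gene in SeqMonk. They deposited raw counts and, separately, log2 RPKM values scaled for library size and transcript length. Columns of group averages were not used. The labels name a kit that does not mark strand, the study's methods also name a stranded one, and SeqMonk's strand option was not given in the sources used here.

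Of 35591 count rows, 49 repeated an identifier and 27 symbols had become dates and were restored. Libraries held 4195119 to 24125084 counts, which limits the precision of *Esm1* and *Sox17* most. Genotypes were compared on the counts with edgeR 4.0.16 (R 4.3.3), after filterByExpr (15982 genes) and TMM scaling, by the quasi-likelihood test on 15452 autosomal genes with Benjamini-Hochberg adjustment at 0.05. Sex effects came from 1 model of the 4 groups on all chromosomes. CPM are counts per 1000000 of the TMM-scaled library, and scores use log2 CPM with a prior count of 2. Alternatives were DESeq2 1.42.0, limma 3.58.1, other scalings and filters, sex or replicate number as a term, and leaving out libraries. Motifs were searched in the 250 bases before each RefSeq start, and printed stretches end before the GENCODE M21 gene start. Figures were drawn with matplotlib 3.10.9.

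The 10 genes and all lists were chosen with earlier results of these data known. Text names these 10 genes, the receptor ligands, the extremes of each role of the wider list and the 10 genes of most like pattern. *Nrp1*, *Nrp2* and *Vegfd* were added after their values were seen. Single genes of the other lists are left out, except *Tspo2*, *Dcn* and *Prl8a2*.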

Additional observations from a re-analysis of the deposited data

Results flagged for a closer look

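Dixon's test at the 95% level was applied to each of the 10 genes in each genotype, 20 groups in all, and marked 3; chance marks about 1 group in 20. *Esm1* in MD1 was marked for female replicate 4, at 27.9 CPM, and *Icam2* in MD1 for the same library, at 16.3 CPM. *Cdh5* in WT was marked for male replicate 2, at 104.5 CPM, the highest of the 6 WT libraries.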

How the results depend on the processing

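Of 226 comparisons of a group's count or median with its value under another setting, 183 kept it. With 4 MD1 libraries and as few as 15 counts for *Esm1* in 1 of them, small differences of the low genes were not resolved. For the 10 genes, the number higher in MD1 at an unadjusted p under 0.05 was 5 with all libraries, 2 with a replicate block, 0 without both libraries labelled MD1 female and 0 in labelled males only; leaving out 1 library gave 3 (without MD1 female replicate 4) to 6. Their median log2 fold change was 0.50 with all libraries, 0.28 by limma on log2 RPKM (where the median of all genes was -0.10), 0.030 without both labelled females and -0.016 in labelled males, and 0.12 (without MD1 female replicate 4) to 0.61 (without MD1 male replicate 2) when 1 library was left out. The wider list had 15 higher genes with all libraries, 5 by limma on log2 RPKM, 9 with labelled sex as a term, 0 with the replicate block, 0 without both labelled females and 0 in males; 1 library less gave 3 (without MD1 female replicate 4) to 28 (without MD1 male replicate 2). Its median was 0.17, then 0.059 by limma on log2 RPKM, -0.013 without both labelled females and -0.035 in males, and 0.061 to 0.25 with 1 library left out. Of all autosomal genes 12 passed, against 51 by DESeq2, 4 by limma on log2 RPKM, 0 with the replicate block, 6 without both labelled females, 4 in males and 4 to 13 with 1 library left out, the lowest without WT male replicate 2 or the library labelled female MD1 replicate 1, with 5 to 7 without WT replicate 1, 3, 5 or 6 or MD1 male replicate 3. Samples that share a replicate number did not deviate together (correlations 0.00, -0.07, 0.05 and -0.12), so the block pairs nothing.

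The lists of other cell types had 0 to 1 genes past the threshold with 1 library left out, the 1 being *Prl8a2* without MD1 male replicate 2. The female against male comparison in WT had 0 genes of the 10 at an unadjusted p under 0.05, and 1 (*Flt1*) in WT libraries only, a fit chosen after seeing the data; 1 library less gave 0 to 1. The difference of the genotype effect between sexes had 0 genes past the threshold, 1 without the filter and 0 to 5 (without the library labelled female MD1 replicate 1) with 1 library left out, and 5 genes at an unadjusted p under 0.05, with 1 (without MD1 male replicate 2) to 5 when 1 library was left out, 2 without MD1 female replicate 4 and 3 without WT male replicate 2 or WT female replicate 6.

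None of the 10 genes passed the adjusted threshold between genotypes in any of the 23 fits, though *Esm1* had no p by DESeq2. Signs turned as follows. In labelled males only the log2 fold change was -0.11 for *Flt1*, -0.14 for *Tek*, -0.19 for *Tie1*, -0.42 for *Sox17*, 0.20 for *Apela*, -0.42 for *Dll4*, -0.31 for *Flt4*, 0.078 for *Nrarp*, -0.16 for *Nrp1*, -0.049 for *Nrp2*, -0.36 for *Pgf*, -0.23 for *Ptprb*, -0.18 for *Stab1*, -0.47 for *Vegfa* and -0.28 for *Vegfb*. Without both labelled females it was -0.061 for *Tek*, -0.14 for *Tie1*, 0.0055 for *Aplnr*, -0.52 for *Sox17*, 0.35 for *Apela*, -0.37 for *Dll4*, -0.18 for *Flt4*, -0.12 for *Nrp1*, -0.12 for *Nrp2*, -0.22 for *Pgf*, -0.16 for *Ptprb*, -0.17 for *Stab1*, -0.25 for *Vegfa* and -0.32 for *Vegfb*. *Tie1*, at 0.00 with all libraries, was -0.086 by limma on log2 RPKM, -0.015 by limma-voom, -0.038 with total-count scaling, -0.010 without a filter, -0.0100 with the replicate block and -0.0013 with labelled sex as a term. *Flt4* was -0.052 by limma on log2 RPKM, -0.0068 with total-count scaling and -0.019 with the replicate block, *Vegfb* was -0.021 by limma on log2 RPKM and *Pgf* was -0.045 with the replicate block. With 1 library left out the ranges that crossed 0 were -0.0063 to 0.17 for *Tek*, -0.071 to 0.11 for *Tie1*, -0.18 to 0.84 for *Sox17*, -0.030 to 0.27 for *Angpt1*, -0.40 to 0.22 for *Angpt2*, -0.35 to 0.22 for *Apela*, -0.10 to 0.87 for *Dll4*, -0.073 to 0.13 for *Flt4* and -0.12 to 0.30 for *Vegfb*. The cause was not tested for any of these changes.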
